A study of Mus musculus with 4 samples.

Results

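Neutrophils of mouse inguinal fat were selected among the cells of 4 single-cell RNA libraries by the transcripts they carried. A barcode with at least 300 genes, at least 500 unique molecular identifiers (UMIs) and at most 10% mitochondrial UMIs was called a neutrophil under 4 conditions. It had 10 or more UMIs of S100a8 and S100a9 together, at least 1 UMI of Csf3r, Cxcr2, Retnlg or Mmp9, fewer than 3 UMIs of the C1q genes, and none of Cd79a or Cd3e. This gate found 92 cells among 14931 retained cells. Of these, 50 came from the Lin+ iAdFASNKO library, 41 from Lin+ control, 1 from Lin- iAdFASNKO and 0 from Lin- control. Because measured values chose the cells, the levels of the gate genes are descriptions.

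The study isolated stromal vascular cells, which exclude adipocytes, from inguinal white fat of 8 iAdFASNKO mice and 7 control mice. The name iAdFASNKO is known to stand for an inducible adipocyte deletion of Fasn, the gene of fatty acid synthase; the labels do not expand it. Magnetic beads divided each pool of mice into cells that carried lineage markers (Lin+) and cells that did not (Lin-), after lysis of red blood cells. The design text names a C57BL/6 strain for control mice, and ages were not used here. Each genotype and fraction is 1 library, so no test between genotypes was possible, every interval below covers counting error only, and differences between mice, preparations and genotypes cannot be told apart. Fasn stood at 21.6 CPM (UMIs of the gene, scaled to a common total for each pool of cells) in Lin+ iAdFASNKO cells against 36.2 CPM in Lin+ control cells, with 0 and 2 UMIs in the gated neutrophils. Since adipocytes are absent from this fraction, that gene does not check the deletion.

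Neutrophils are short-lived granulocytes made in bone marrow. During maturation they first make granule proteins, such as lactoferrin (Ltf), cathelicidin (Camp) and neutrophilic granule protein (Ngp), and later gain the chemokine receptor Cxcr2 and leave for the blood. S100a8 and S100a9 encode calprotectin, an abundant cytosolic calcium-binding complex. In inflamed tissue, mature neutrophils can make interleukin 1 beta (Il1b) and chemokines such as Cxcl2, which attracts further neutrophils through Cxcr2.

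Levels of the gate genes were set beside those in macrophages, T cells, B cells and stromal cells of the Lin+ libraries. Each of these was selected by its own markers. The macrophage, T and B cell gates also required fewer than 10 UMIs of S100a8 and S100a9 together. Low S100a8 in those gates was therefore set in advance. S100a8 reached 81283 CPM in iAdFASNKO and 79370 CPM in control neutrophils with few transcripts of other cell types, a subset defined in the next paragraph. In macrophages it was 6.62 and 4.54 CPM, and in B cells 6.64 and 4.57 CPM. Among B cells, 2.66% of iAdFASNKO and 1.66% of control cells had an S100a8 UMI, at median depths of 2596 and 2398 UMIs. Whether free RNA in the droplets gave these UMIs was not tested. Retnlg, a resistin-like secreted protein of granulocytes, had 0 UMIs in the macrophages of both libraries. Csf3r, the receptor for granulocyte colony-stimulating factor, had 5 UMIs in 60 iAdFASNKO macrophages and 29 UMIs in 115 control macrophages. Mmp9, a gelatinase of neutrophil granules, was the gate gene nearest to the macrophage level, at 1055 and 966 CPM in iAdFASNKO and control neutrophils against 298 and 212 CPM in macrophages. The gate fixed the presence of these genes, so they do not check the label. Of neutrophil identity genes outside the gate, 21 of 23 measured in the subset were at least 4-fold higher than in the other Lin+ cells in both libraries. Of all 361 genes measured there, 159 (44%) were so too, as described further on. The cells nearest to the S100 limit had 14, 14 and 18 such UMIs inside it in iAdFASNKO and 12, 15 and 23 in control. Just outside, 0 iAdFASNKO and 4 control cells had 3 to 9 such UMIs and met every other condition. Another 18 iAdFASNKO and 24 control cells had 10 or more but failed a condition, of which C1q transcripts stopped 9 and 22.

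**Figure D1:**
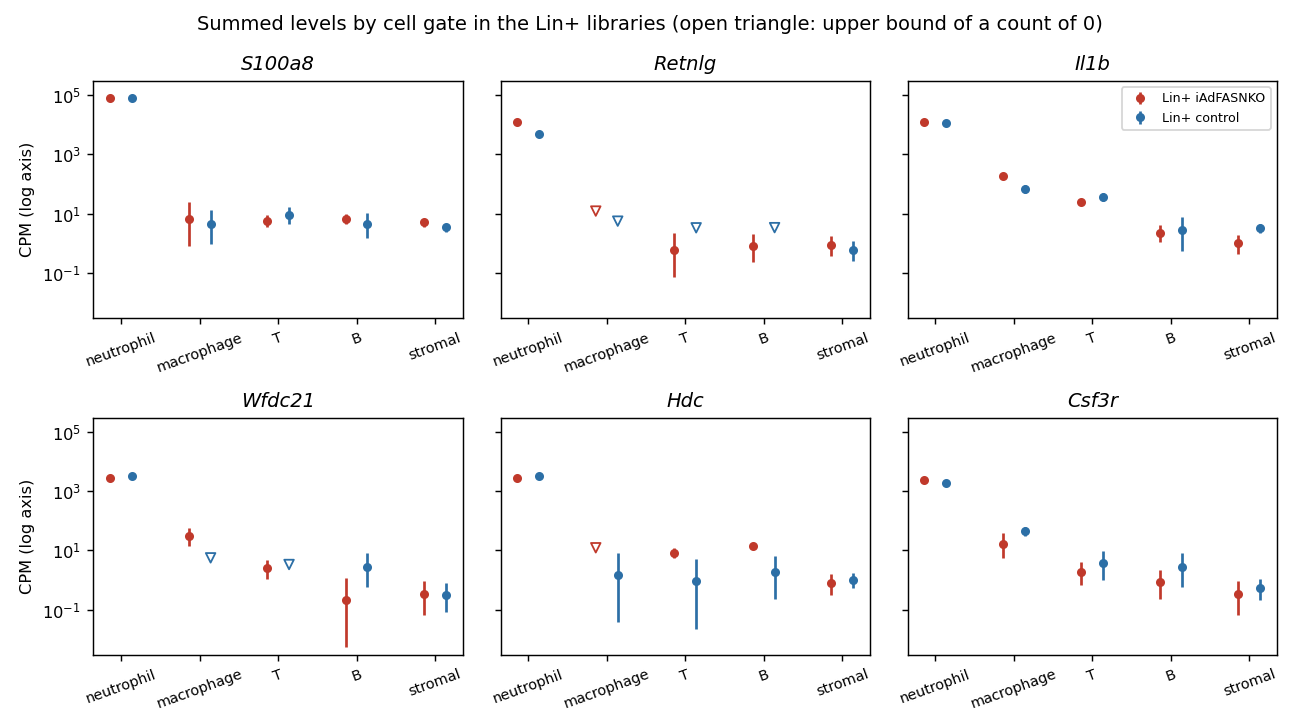
CPM (log axis) of 6 genes summed over each cell gate in the Lin+ libraries, iAdFASNKO left of control, with 95% counting intervals and open triangles for the upper bound of a count of 0. Neutrophils are those with few transcripts of other cell types; all 6 genes lie far above the other gates, with S100a8 at 81283 and 79370 CPM.

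Cells that met the gate were not all free of other cell types' transcripts. In 10 of 50 iAdFASNKO and 9 of 41 control cells, 20 or more UMIs came from marker genes of macrophages, monocytes, dendritic cells, B cells, T cells, stromal progenitors or vessels, or over 10% of UMIs were haemoglobin. At least 20 stromal UMIs were found in 3 and 5 of them, and at least 20 MHC class II UMIs in 4 and 4. One cell in each library passed the haemoglobin limit, at 84.5% of UMIs in iAdFASNKO and 15.5% in control. These cells were large, with medians of 6362 and 11507 UMIs, against 1789 and 1624 UMIs in the other gated cells, iAdFASNKO first. Their median mitochondrial share was 3.67% in iAdFASNKO and 3.51% in control, against 0.681% and 0.672% in the other gated cells. S100a8 and S100a9 took a median of 1.48% and 0.959% of their UMIs. Together they held 51.1% of all gated UMIs in iAdFASNKO (75298 of 147330) and 58.0% in control (87050 of 150210). Doublet calling marked 2 of the 50 and 0 of the 41 gated cells, both of the 2 being among these. Sums over all gated cells are therefore given beside sums over the 40 iAdFASNKO and 32 control cells with few such transcripts, a subset chosen after the values were seen. In that subset the markers of T and NK cells summed to 3 and 1 UMIs and those of macrophages to 18 and 28. The markers of stromal progenitors summed to 101 and 124 UMIs and those of red cells to 425 and 288, of 72032 and 63160 UMIs in all. Their part in the gene values below was not tested.

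**Figure D2:**
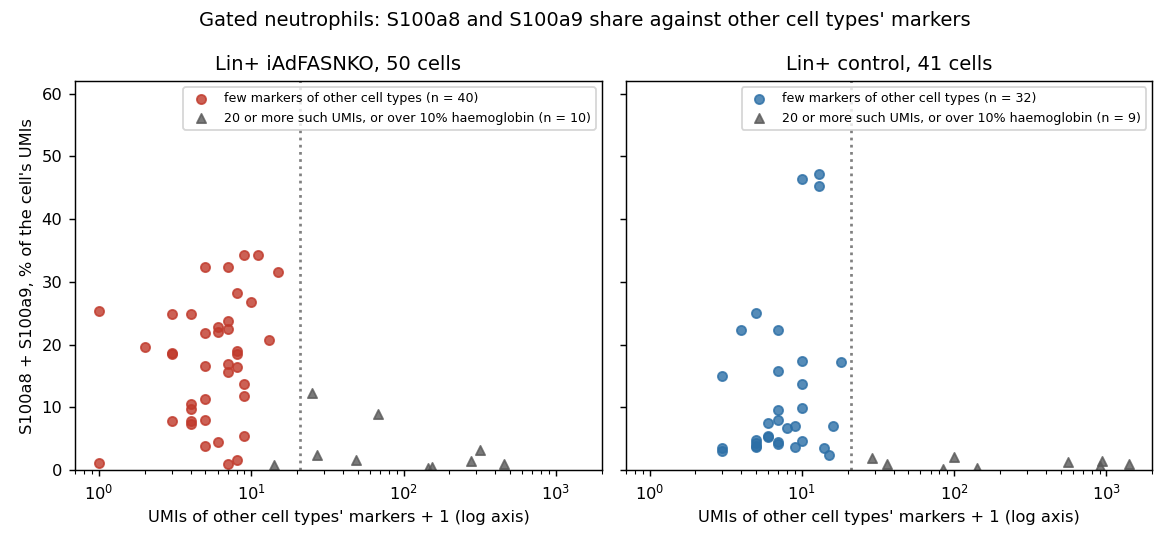
Each point is 1 gated Lin+ cell, with the UMIs of other cell types' markers plus 1 on a log axis and the share of UMIs in S100a8 and S100a9 in percent; iAdFASNKO is on the left and control on the right, and the dotted line marks 20 UMIs. The 10 and 9 grey triangles have 20 or more such UMIs or over 10% haemoglobin and lie mostly at low S100 shares.

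Neutrophils made up 1.11% (0.827% to 1.46%) of retained Lin+ cells in iAdFASNKO, or 50 of 4494, and 1.40% (1.01% to 1.90%) in control, or 41 of 2922. The ratio of the shares was 0.793, with an interval of 0.526 to 1.20 that includes 1. Counted among cells with a Ptprc transcript, the pan-leukocyte antigen CD45, the shares were 1.98% (50 of 2524) in iAdFASNKO and 4.08% (41 of 1006) in control, a ratio of 0.486 (0.324 to 0.730). The Lin+ libraries held 1205 B and 645 T cells in iAdFASNKO against 302 B and 202 T cells in control. With at least 500 genes and 1000 UMIs and at most 5% mitochondrial UMIs, the ratio among Ptprc-positive cells was 0.848 (0.535 to 1.35). Shares of a sorted fraction follow the sort and the recovery of the other cells. In the Lin- fractions the gate found 1 of 4412 iAdFASNKO cells, which also carried markers of other types, and 0 of 3103 control cells, where the Clopper-Pearson upper limit is 0.119% and 3 counts would be 0.0967%.

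Genes of the interleukin 1 system, receptors, metabolic enzymes and granule proteins were among those that stood highest in these neutrophils over all other retained Lin+ cells in both libraries. Among 361 genes outside the gate with 20 or more UMIs in each neutrophil pool of the subset, 159 (44%) were at least 4-fold higher in both libraries and 18 (4.99%) at least 4-fold lower. Over all gated cells it was 167 of 831 genes (20.1%), with 2 lower (0.241%), the stromal matrix genes Fbn1 and Fstl1. Since the gate defined the cells, these ratios describe them and no test was applied. Among the 25 genes with the largest of the smaller ratios, the interleukin 1 system was represented by Il1b, Il1f9 (interleukin 36 gamma), the receptor antagonist Il1rn and the inflammasome sensor Nlrp3. Il1f9 stood at 847 CPM in iAdFASNKO neutrophils against 1.13 CPM in the other iAdFASNKO cells, and at 665 CPM in control neutrophils against 1.43 CPM in the other control cells. Il1b reached 12342 CPM (ratio 318) in iAdFASNKO and 11178 CPM (ratio 237) in control. It was found in 39 of 40 iAdFASNKO and 29 of 32 control cells. In macrophages it stood at 189 and 66.6 CPM.

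Receptors in the same set were Trem1, an amplifier of myeloid activation, the C-type lectins Clec4d and Clec4e, the chemokine receptors Ccr1 and Ccrl2, and the inhibitory receptors Cd300lf and Pilra. Hcar2, a receptor for niacin and ketone bodies, stood at 777 and 1425 CPM in iAdFASNKO and control neutrophils against 1.62 and 3.63 CPM in the other cells. Metabolic genes were Slc7a11, a cystine importer, Slc16a3, a lactate exporter, Acod1, which makes itaconate, and Hdc, which makes histamine. Hdc stood at 2721 and 3198 CPM in iAdFASNKO and control neutrophils, against 28.4 and 32.7 CPM elsewhere. Granule or secreted proteins were Mmp8 (neutrophil collagenase), Lcn2 (lipocalin 2), Hp (haptoglobin), Camp and Wfdc21, a secreted protein with a whey acidic protein domain. Camp had 80 of its 81 UMIs in 1 iAdFASNKO cell and all 632 in 3 control cells. Wfdc21 stood at 2735 and 3230 CPM in iAdFASNKO and control neutrophils, against 6.53 and 1.89 CPM elsewhere. The remaining genes of the set were the chemokine Cxcl2, the cytokine Osm, the transcription factor Mxd1 and the protease Asprv1. The 18 lower genes were chiefly ribosomal protein genes, 15 of the 18, beside Eef1a1 (a translation elongation factor), Gsn and mt-Nd2. Rps29, a protein of the small ribosomal subunit, stood at 1125 and 966 CPM in iAdFASNKO and control neutrophils, against 6051 and 4735 CPM in the other cells. Rpl39 of the large subunit stood at 680 and 443 CPM in neutrophils, against 3912 and 3011 CPM. By list, 21 of 23 measured neutrophil identity genes, 14 of 14 inflammatory genes and 9 of 9 receptor genes were at least 4-fold higher in both libraries, beside 44% of all genes measured.

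The cells differed widely among themselves. S100a8 and S100a9 took from 0.963% to 34.3% of UMIs in iAdFASNKO cells of the subset, with a median of 18.5%, and from 2.38% to 47.2% in control cells, with a median of 6.98%. The 3 highest control values, 45.3% to 47.2%, belonged to cells of a separate makeup, and the next was 24.97%. These 3 control cells and 1 iAdFASNKO cell were rich in granule transcripts, with 20 or more UMIs of Ltf, Camp and Ngp, a limit chosen after the values were seen. Camp had 80 UMIs in the iAdFASNKO cell and 238, 224 and 170 UMIs in the control cells. Ngp had 27 UMIs in the iAdFASNKO cell and 288, 133 and 158 UMIs in the control cells. Ltf had 4 UMIs in the iAdFASNKO cell and 64, 52 and 24 UMIs in the control cells. The other 39 iAdFASNKO and 29 control cells of the subset held 1 and 0 UMIs of Camp, 7 and 1 of Ngp, and 0 and 0 of Ltf.

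The 4 granule-rich cells had no UMI of Il1b, Cxcl2, Nfkbia, Ptgs2, Ccl3 or Cxcr2, although they held 2301 UMIs in iAdFASNKO and 6179, 4750 and 3935 UMIs in control. All of the other 39 and 29 cells had Il1b. Cxcr2 was found in 25 of those 39 and 26 of those 29 cells. The iAdFASNKO granule-rich cell also carried the division genes Mki67 (5 UMIs) and Top2a (7 UMIs), which had 0 UMIs in the 3 control cells. Mpo and Elane, primary granule genes that are made at an earlier stage, had 0 UMIs in all 4 cells. A further granule-rich cell in the Lin+ iAdFASNKO library failed the gate with 25 C1q UMIs. It held 11584 UMIs, 32.6% of them S100a8 and S100a9, with 398 UMIs of Ngp, 214 of Camp and 148 of Ltf, and 0 of Il1b and Cxcl2. Its markers of other cell types summed to 132 UMIs. Lin+ control had 0 such cells outside the gate.

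**Figure D3:**
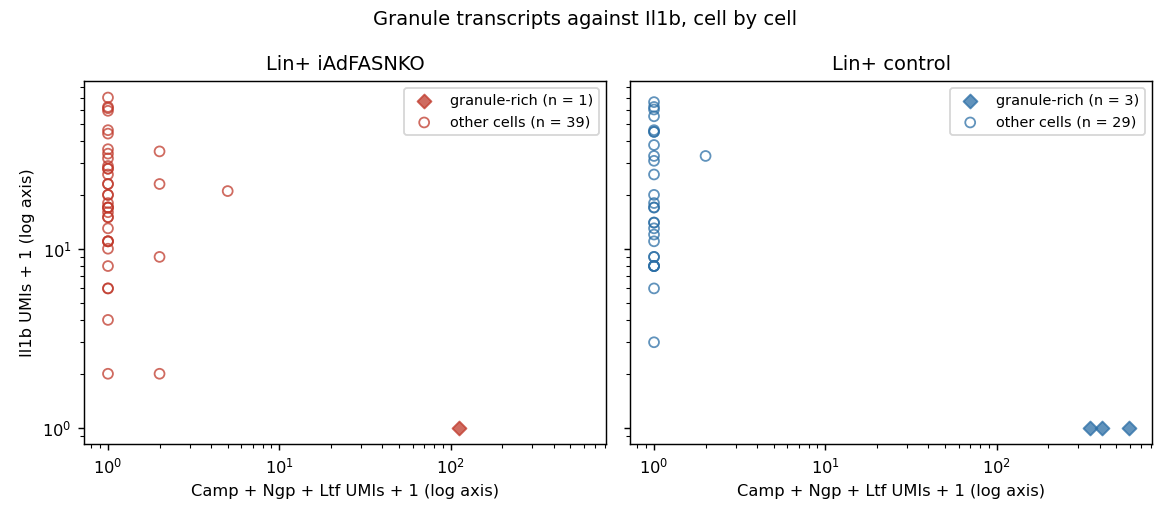
UMIs of Camp, Ngp and Ltf plus 1 against UMIs of Il1b plus 1 (both axes log) in each cell of the subset, iAdFASNKO on the left and control on the right. The 1 and 3 granule-rich cells (diamonds) sit at 0 Il1b UMIs, and all 39 and 29 other cells (circles) have Il1b.

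Camp, Ngp and Ltf, which occurred together in these cells, lie on chromosome 9 within 1195 kb (mm10 109847379 to 111042767). The 250 bases before each RefSeq transcription start are shown on the gene's strand (GRCm38.p6), with those of Cxcl2 from the other cells for contrast. Capitals mark matches on either strand to TTGCNNAA, a form of the C/EBP motif, or to a form of the NF-kB motif, GGG and TTCC with 3 bases of any kind between them.
Camp: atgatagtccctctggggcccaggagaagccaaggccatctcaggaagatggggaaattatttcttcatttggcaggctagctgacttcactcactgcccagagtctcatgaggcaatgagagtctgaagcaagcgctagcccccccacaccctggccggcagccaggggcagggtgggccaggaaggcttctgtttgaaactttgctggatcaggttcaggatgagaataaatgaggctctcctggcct
Ngp: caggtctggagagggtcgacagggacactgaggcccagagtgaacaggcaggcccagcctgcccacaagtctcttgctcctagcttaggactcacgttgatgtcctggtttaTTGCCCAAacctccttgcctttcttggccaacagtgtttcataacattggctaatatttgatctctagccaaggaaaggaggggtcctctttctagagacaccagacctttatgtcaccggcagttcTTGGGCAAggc
Ltf: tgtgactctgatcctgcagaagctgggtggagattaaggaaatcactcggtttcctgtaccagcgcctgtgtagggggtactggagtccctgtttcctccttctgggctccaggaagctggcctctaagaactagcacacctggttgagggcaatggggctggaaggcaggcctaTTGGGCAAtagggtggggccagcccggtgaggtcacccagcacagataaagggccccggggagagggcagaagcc
Cxcl2: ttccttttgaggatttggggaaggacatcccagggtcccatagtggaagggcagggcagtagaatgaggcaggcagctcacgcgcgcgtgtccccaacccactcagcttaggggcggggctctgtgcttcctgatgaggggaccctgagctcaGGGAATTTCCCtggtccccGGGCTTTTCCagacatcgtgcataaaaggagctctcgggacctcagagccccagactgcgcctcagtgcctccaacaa
The windows are chr9:109849457-109849706 on the minus strand for Camp, chr9:110419558-110419807 on the plus strand for Ngp, chr9:111019042-111019291 on the plus strand for Ltf and chr5:90903649-90903898 on the plus strand for Cxcl2. Ngp had 2 matches to the C/EBP form and Ltf had 1, a form found in 9.57% of 32817 RefSeq windows of the same length. Camp had 0 matches to either form. The window of Il1b, also searched but not shown, likewise had 0 matches to either form. Cxcl2 had 3 matches to the NF-kB form, a form found in 4.65% of the windows, and 2 of the 3 overlap on opposite strands. These matches are letters in a window, and binding was not measured. By GENCODE, the start of each gene shown lies inside its window, so part of each window is within the annotated gene. For Camp that start is at 109849617.

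Between genotypes, Wfdc17, 3 stefin A genes, Ifitm1 and Lrg1 were higher in the iAdFASNKO neutrophil pool, and Cxcl2, Ptgs2, Pim1 and Thbs1 were lower. In the other retained Lin+ cells the ratio was 0.2845 for Cxcl2, 0.5241 for Ptgs2, 0.8406 for Pim1 and 0.7046 for Thbs1. Cxcl2 was thus also lower in this pool of cells, whose makeup differed between genotypes. In the macrophages among them Cxcl2 stood at 0.753, on 136 UMIs in iAdFASNKO and 395 UMIs in control. In the whole pool of other cells the stefin A genes Stfa2l1, Gm5483 and Stfa1 stood at 0.7874, 1.425 and 12.05. Wfdc17, Ifitm1 and Lrg1 stood there at 0.6697, 0.8472 and 1.166. That pool includes the S100-rich cells that failed the gate. Macrophages had 0 UMIs of the 3 stefin A genes in both libraries. Over all gated cells, 153 of 1038 measured genes (14.7%), those with 40 or more UMIs over both libraries, were past 2-fold, 44 higher (4.24%) and 109 lower (10.5%) in iAdFASNKO. In the subset it was 57 of 450 (12.7%), 26 higher (5.78%) and 31 lower (6.89%), and 24 of the 57 were among the 153. Over all gated cells the genes past 2-fold included genes of other cell types. Hba-a1, an alpha globin, had 2347 UMIs in iAdFASNKO, of which 2220 in 1 cell, against 308 UMIs in control. Gsn, an actin-severing protein abundant in stroma, had 166 UMIs in iAdFASNKO against 1578 UMIs in control, of which 575 in 1 cell. The genes named next are those of the subset. Of the 12 named in each direction, 8 of the higher and 7 of the lower were also past 2-fold over all gated cells.

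Wfdc17, a secreted whey acidic protein domain protein of myeloid cells, had the interval farthest from 1 among higher genes. It had 318 UMIs in 31 of 40 iAdFASNKO cells (4415 CPM) against 46 UMIs in 10 of 32 control cells (728 CPM), a ratio of 6.06 (4.44 to 8.45). Per cell the median was 29.3 per 10000 UMIs in iAdFASNKO, with a highest value of 185, against a median of 0 and a highest value of 64.4 in control. The ranges of the cells overlapped, with most of the high values in iAdFASNKO. Over all gated cells the ratio was 3.94.

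Stfa2l1, Gm5483 and Stfa1 lie in 1 cluster on chromosome 16 (mm10 36156811 to 36285373). The stefin A family inhibits cysteine cathepsins. Their sequences are alike, so reads may have been split among them or lost, and their separate values are uncertain. Together they had 269 UMIs in iAdFASNKO against 37 UMIs in control. At least 1 such UMI was found in 24 of 40 iAdFASNKO and 10 of 32 control cells, with up to 38 UMIs in an iAdFASNKO cell and up to 10 in a control cell. Stfa2l1 had 143 UMIs in iAdFASNKO against 18 UMIs in control, a ratio of 6.97 (4.25 to 12.1). Stfa1 rested on 4 iAdFASNKO cells and 1 control cell.

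Among the other higher genes, Ifitm1, a membrane protein that restricts virus entry, had 253 UMIs in iAdFASNKO (3512 CPM) against 75 UMIs in control (1187 CPM), a ratio of 2.96 (2.28 to 3.88). Its relatives Ifitm2 and Ifitm3 stood at ratios of 1.81 (1.38 to 2.40) and 1.52 (1.08 to 2.15). Lrg1, a leucine-rich glycoprotein of neutrophil granules, had 88 UMIs in iAdFASNKO against 26 UMIs in control, a ratio of 2.97 (1.90 to 4.79). The calcium-binding S100a6 had 661 UMIs in iAdFASNKO against 273 UMIs in control, a ratio of 2.12. S100a6 stood at 1.41 in the full gate and at 1.795 without the granule-rich cells. The redox enzyme Gpx1, the mitochondrial proteins Coq10b and Tspo, the matrix protein Tgfbi and the receptor Sirpb1b had ratios of 2.63 to 3.07 on 35 to 57 UMIs in iAdFASNKO and 10 to 19 UMIs in control. Sirpb1b belongs to a family of near-identical genes and is uncertain for the same reason as the stefins. Gpx1 and Tspo stood at 1.47 and 1.33 in the full gate.

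**Figure D4:**
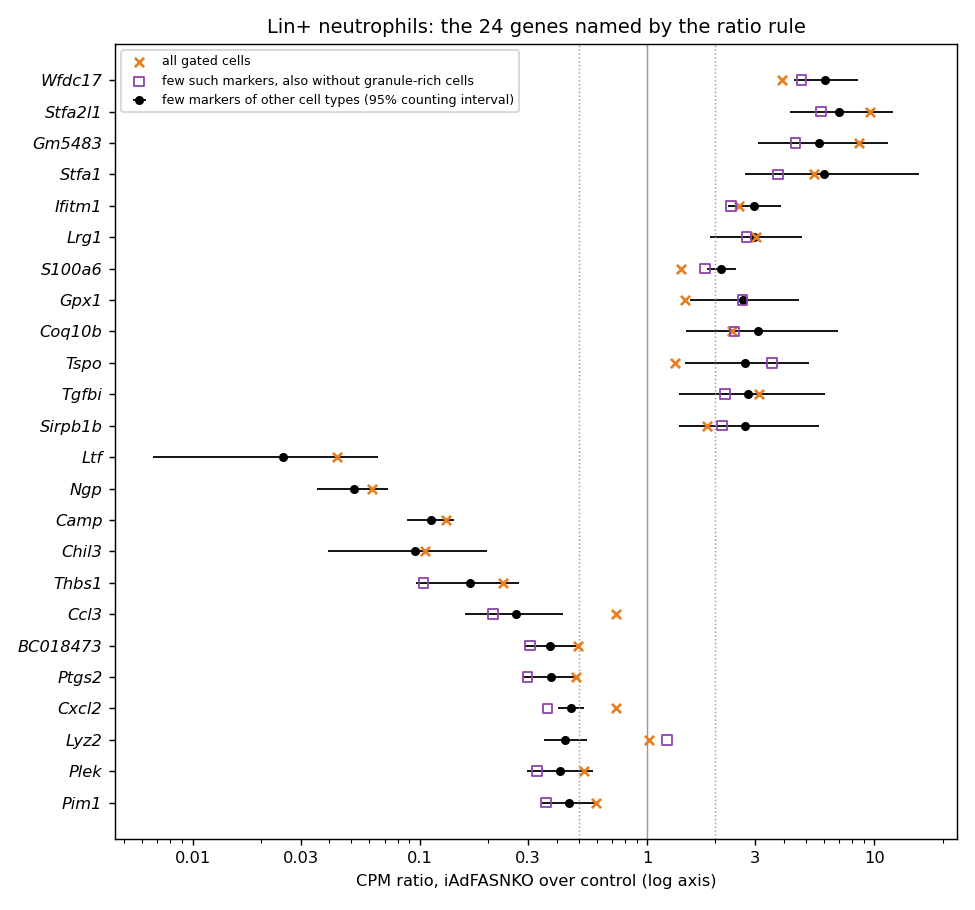
CPM ratio of iAdFASNKO over control neutrophils (log axis) for the 12 higher and 12 lower genes named; black points with 95% counting intervals are the 40 and 32 cells with few transcripts of other types, orange crosses all 50 and 41 gated cells, and purple squares the 39 and 29 cells without the granule-rich ones, where control is above 100 CPM. Wfdc17 and Stfa2l1 stay above 2 in all 3 sets, while Lyz2 is above 1 over all gated cells and without the granule-rich ones.

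Among the lower genes, Ltf, Ngp, Camp and Chil3 followed the 4 granule-rich cells. Ltf, Camp and Ngp summed to 119 UMIs in iAdFASNKO against 1352 UMIs in control in the subset, and to 879 UMIs in iAdFASNKO against 1352 UMIs in control with the iAdFASNKO cell that failed the gate. The CPM ratio of Ltf was 0.0251 without that cell and 0.820 (0.648 to 1.04) with it, that of Ngp 0.0514 and 0.563, and that of Camp 0.112 and 0.353. Chil3, a chitinase-like protein, had 8 UMIs in iAdFASNKO against 74 UMIs in control, all but 1 of them in granule-rich cells. Lysozyme (Lyz2) had a ratio of 0.437 in the subset, 1.02 over all gated cells and 1.23 without the granule-rich cells. These counts of 1 and 3 cells are too few to set a difference in granule-rich cells between genotypes.

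The remaining lower genes were found mainly outside the granule-rich cells. Cxcl2 had 345 UMIs in 25 of 40 iAdFASNKO cells (4790 CPM) against 654 UMIs in 25 of 32 control cells (10355 CPM), a ratio of 0.463 (0.405 to 0.528). Its median per cell was 13.4 per 10000 UMIs in iAdFASNKO against 40.5 in control, and the highest cells reached 463.5 and 796. The cell with most Cxcl2 UMIs in each library held 54 and 173 of them, and without both the ratio was 0.497. With all gated cells it was 0.731. Ptgs2, the inducible cyclooxygenase of prostaglandin synthesis, had 77 UMIs in iAdFASNKO against 179 UMIs in control, a ratio of 0.377 (0.285 to 0.495), and a median per cell of 7.79 per 10000 UMIs in iAdFASNKO against 26.1 in control. It stood at 0.486 in the full gate. Ccl3, a chemokine for monocytes, rested on 6 iAdFASNKO and 8 control cells, with 23 and 76 UMIs. Ccl3 stood at 0.727 in the full gate and at 0.2352 in the other retained Lin+ cells.

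Pim1, a survival kinase induced by cytokines, had 86 UMIs in 28 of 40 iAdFASNKO cells against 167 UMIs in 29 of 32 control cells, a ratio of 0.452 (0.344 to 0.589). Thbs1, the matrix glycoprotein thrombospondin 1, had 19 UMIs in 6 iAdFASNKO cells against 100 UMIs in 19 control cells, a ratio of 0.167 (0.0963 to 0.274). Plek, a protein kinase C substrate of leukocytes and platelets, and the long noncoding RNA BC018473 had ratios of 0.416 and 0.375. Il1b itself did not follow them. Its ratio was 1.10 (0.999 to 1.22) in the subset, 0.872 (0.789 to 0.964) without the granule-rich cells and 1.22 over all gated cells, and its median per cell was 107 per 10000 UMIs in iAdFASNKO against 128 in control.

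**Figure D5:**
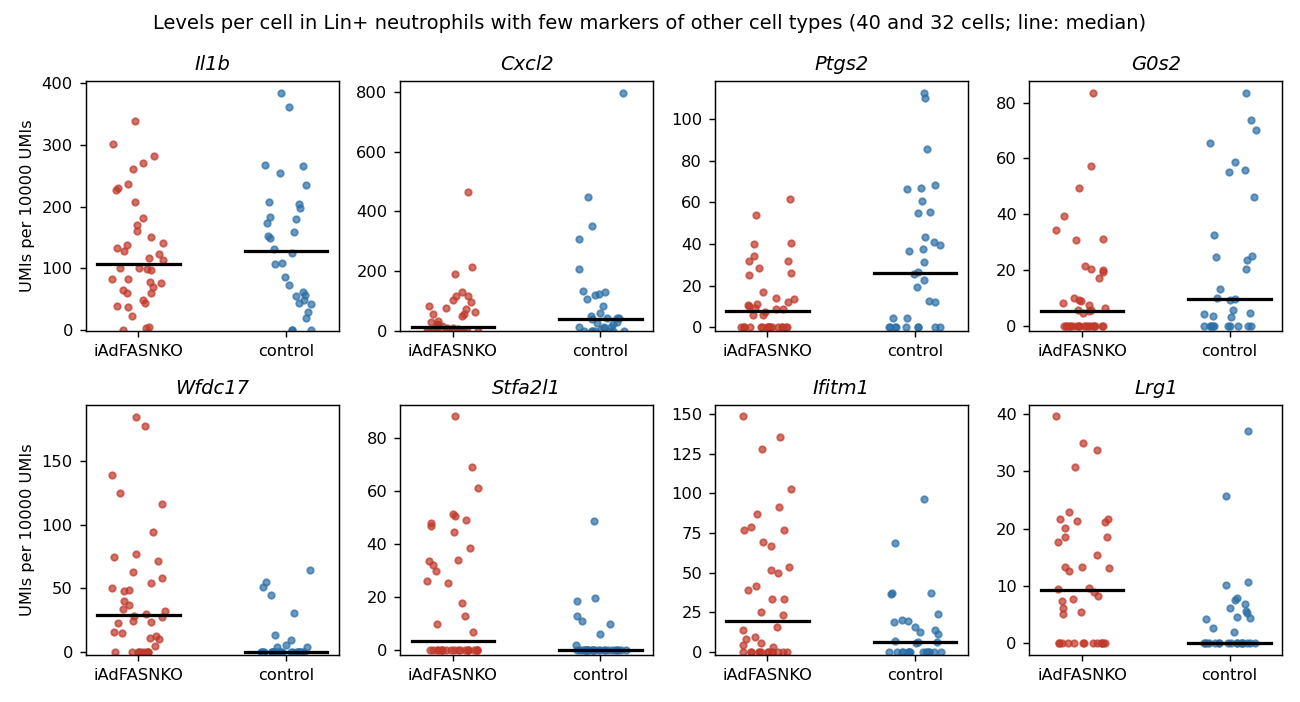
UMIs per 10000 UMIs in each of the 40 iAdFASNKO (left, red) and 32 control (right, blue) Lin+ neutrophils of the subset for 8 genes; black lines are medians. Il1b has medians of 107 and 128, Cxcl2 of 13.4 and 40.5, Ptgs2 of 7.79 and 26.1, and Wfdc17 of 29.3 and 0.

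Read by gene list, inflammatory cytokines, chemokines and their regulators lay below the median of all genes. Of 15 measured, 0 were past 2-fold higher and 5 past 2-fold lower in iAdFASNKO (Cxcl2, Ccl3, Ptgs2, Il1rn and Tnfaip3). Over all 450 genes 5.78% were higher and 6.89% lower. The median log2 ratio of the list was -0.54, beside 0.04 over all 450 genes. In the full gate the median of this list was -0.34 beside -0.04. There 1 of 18 members, Ptgs2, was past 2-fold lower, beside 10.5% lower over all 1038 genes. Il1rn and Nlrp3 then stood at 0.663 and 0.973. Tnfaip3, a feedback inhibitor of NF-kB, had 29 UMIs in iAdFASNKO against 56 UMIs in control, a ratio of 0.454. Nfkbia, another such inhibitor, had 209 UMIs in iAdFASNKO against 266 UMIs in control, a ratio of 0.689 (0.572 to 0.829). The chemokines were split, with Ccl6 at 1.67 (1.30 to 2.17) and Ccl4 at 1.75 (0.953 to 3.35) on 34 UMIs in iAdFASNKO against 17 UMIs in control. In the full gate Ccl6 stood at 1.72 and Ccl4 at 1.89 (1.37 to 2.63). Without the 4 granule-rich cells, 7 of the 15 were past 2-fold lower and 0 higher, with a median of -0.88, beside 38 lower (9.36%) and 20 higher (4.93%) among 406 genes and a median of -0.11 over them. Osm, a cytokine of the interleukin 6 family, and Nlrp3 were the 2 that joined, at ratios of 0.498 and 0.431. The list of tissue-resident and aged neutrophil genes, which shares Ccl3, Il1rn and Nlrp3 with it, had a median of -0.56 over 6 members in the subset.

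Receptor genes had a median of -0.50 over 9 measured members, of which Il1r2, the decoy receptor of interleukin 1, was past 2-fold lower with 61 UMIs in iAdFASNKO against 107 UMIs in control, beside 6.89% lower over all 450 genes. In the full gate 0 of 14 receptor genes were past 2-fold, with a median of -0.10 and Il1r2 at 0.529. Cxcr4, the receptor that returns aged neutrophils to the marrow, had 55 UMIs in iAdFASNKO against 39 UMIs in control, a ratio of 1.24 (0.806 to 1.91). Among 9 pattern and Fc receptors, Cd14, which binds bacterial lipopolysaccharide, was past 2-fold lower with a ratio of 0.419 (0.286 to 0.607). Of these receptors 0 were higher, beside 6.89% lower and 5.78% higher over all 450 genes. In the full gate Cd14 stood at 0.710. Of 7 measured genes of the NADPH oxidase and antimicrobial enzymes, Lyz2 was past 2-fold lower and 0 were higher, beside 6.89% lower over all genes; as given above, Lyz2 stood at 1.02 in the full gate and 1.23 without the granule-rich cells. The oxidase subunits Cyba and Ncf1, which serve superoxide production, stood at 1.17 and 0.998.

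Of 24 measured identity genes, 3 were past 2-fold higher (Wfdc17, Stfa2l1 and Lrg1) and 2 lower (G0s2 and Il1r2), with a median of -0.07, beside 5.78% higher and 6.89% lower over all genes. Without the granule-rich cells 5 of 24 were higher and 1 lower, beside 4.93% higher and 9.36% lower over all 406 genes. G0s2, an inhibitor of the lipase that starts triglyceride breakdown, had 80 UMIs in iAdFASNKO against 146 UMIs in control, a ratio of 0.480 (0.361 to 0.635). Without the granule-rich cells G0s2 stood at 0.554, on 80 UMIs in iAdFASNKO against 100 UMIs in control. Lcn2 and Wfdc21 depended on those cells too. Lcn2 stood at 0.517 with them and at 2.29 (1.63 to 3.28) without them, and Wfdc21 at 0.847 with them and at 2.35 (1.74 to 3.23) without them. Anxa1, an anti-inflammatory phospholipid-binding protein, likewise stood at 1.02 with them and at 4.75 (2.14 to 12.4) without them, on 48 UMIs in iAdFASNKO against 7 UMIs in control; it was chosen for mention after its values were seen. Interferon response genes were mixed in the subset, with Ifitm1 past 2-fold higher and Slfn4 past 2-fold lower among 6 measured. In the full gate 1 of 12 was higher and 4 lower, with a median of -0.67 beside -0.04. Over all genes of the full gate 4.24% were higher and 10.5% lower. Without the granule-rich cells 2 of 5 were higher and 0 lower, beside 4.93% higher and 9.36% lower over all 406 genes. Of 13 measured immediate early and heat shock genes, which tissue digestion is known to induce, 0 were past 2-fold higher and 2 lower (Jun and Dnaja1), at 0.478 and 0.470, beside 6.89% lower over all genes. In the full gate Jun and Dnaja1 stood at 0.592 and 0.684. There 3 other members of 24 were past 2-fold lower, beside 10.5% lower over all 1038 genes. They were Egr1 at 0.139, Fosb at 0.178 and Klf4 at 0.349, which were not measured in the subset. Egr1 was found in 8 of 9 control cells with other types' transcripts and in 11 of 32 control cells of the subset. In iAdFASNKO it was found in 3 of 10 and 4 of 40. In the subset Fos stood at 1.42 (1.10 to 1.85) and Junb at 0.995 (0.825 to 1.20). Genes of MHC class II and of division had 0 members with 40 UMIs in the subset.

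Among the gate genes, described here without a test, Retnlg was higher in iAdFASNKO. It had 885 UMIs in 36 of 40 iAdFASNKO cells against 299 UMIs in 24 of 32 control cells, a ratio of 2.60 (2.27 to 2.97), and a median per cell of 91.3 per 10000 UMIs in iAdFASNKO against 22.0 in control. The ratio was 2.95 in the full gate. Csf3r, Cxcr2 and Mmp9 stood at 1.25, 1.12 and 1.09 in the subset. S100a8 and S100a9 stood at 1.02 and 1.03 as sums, and at 1.88 and 1.90 without the 4 granule-rich cells. Across the subset without granule-rich cells, Retnlg ranked with Lcn2 (Spearman rho 0.606 over 39 iAdFASNKO cells and 0.409 over 29 control cells) and against Pim1 (rho -0.551 and -0.350). Cxcl2 ranked with Nfkbia in both (rho 0.525 and 0.391). Each cell shares 1 depth for both genes and cells of 1 library are not replicates, so these values only describe the cells. Retnlg ranked weakly with Wfdc17 and Stfa2l1, with rho between -0.103 and 0.166.

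The Lin+ libraries held 25865546 UMIs in 6133 iAdFASNKO barcodes and 21622291 UMIs in 3686 control barcodes, with medians of 3339 and 5362 UMIs per retained cell. Neutrophils of the subset had medians of 762 genes in iAdFASNKO and 681.5 genes in control. Pairs of libraries shared 109 to 170 barcode sequences, and 1 gated Lin+ neutrophil carried a sequence shared between iAdFASNKO and control.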

How the data were processed

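Single-cell libraries were made from 4 cell suspensions with a 10x Genomics droplet kit for transcript 3' ends, per the labels' protocols. The deposited matrices hold raw UMI counts, per the file headers and the whole-number values. Per the submitters' processing notes, Cell Ranger 3.1.0, Seurat 3.0 and mm10 were used; a software version of 3.0.2 stands in the matrix headers. Which annotation release and barcode filter preceded deposit is not given in the sources used here. Every matrix holds 1 genotype, read from its name, which fits only 1 of the 2 treatments, and the barcode tag gives the fraction; if the names were exchanged, all directions would be turned round. GENCODE M21 coordinates matched 30934 of 31053 features.

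Neutrophils, gene lists and marker lists were chosen with earlier results of these data known. Counts were summed over the cells of each library and scaled to CPM. Shares carry Clopper-Pearson 95% intervals, their ratios Katz intervals, levels in CPM exact Poisson intervals, and ratios of CPM intervals from the exact binomial distribution of the UMIs given their sum. A gene was measured with 40 UMIs over both libraries and called by size alone, at 2-fold. The named genes were the 12 in each direction whose interval lay farthest from 1 and which stayed past 1.5-fold without the cell with most UMIs in each library, and the 25 with the largest smaller ratio over other Lin+ cells. Gate genes were left out. For list members, those past 2-fold and those with most UMIs were named. Applying the same rule to the subset with few transcripts of other cell types was decided after the values were seen. The other cell types were selected by markers, a cell counting as Ptprc-positive with 1 UMI or when gated. Doublets were called with Scrublet in scanpy 1.11.5 (expected rate 0.06), which marked 1.54% of Lin+ iAdFASNKO and 1.16% of Lin+ control cells, and were kept. Ratios and intervals were tested on simulated data. Python 3.11.15, numpy 2.4.6, scipy 1.17.1 and matplotlib 3.10.9 were used.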

Additional observations from a re-analysis of the deposited data

Results flagged for a closer look

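Among the genes named by the ratio rule with 40 or more UMIs in macrophages, 3 were past 2-fold in opposite directions in neutrophils and macrophages; genes with smaller opposite ratios were not listed. The ratios are of CPM, iAdFASNKO over control, in neutrophils with few transcripts of other cell types and in macrophages of the same Lin+ libraries. The difference between the cell types was not tested, since each genotype is 1 library. The share of all measured genes with such opposite ratios is not given here. Macrophages with other types' transcripts were not left out as such neutrophils were. S100a6 stood at 2.123 in neutrophils and at 0.4985 in macrophages, on 274 UMIs in iAdFASNKO and 1202 UMIs in control macrophages. Over all gated neutrophils S100a6 stood at 1.413, not past 2-fold, while Chil3 and Ptgs2 stood at 0.1059 and 0.4855. Without the granule-rich cells S100a6 stood at 1.795, also not past 2-fold, and Ptgs2 at 0.2979. Chil3 stood at 0.09479 in neutrophils, where 1 and 3 granule-rich cells held nearly all of it, and at 6.779 in macrophages, on 31 and 10 UMIs. Ptgs2 stood at 0.3772 in neutrophils and at 2.386 in macrophages, on 24 and 22 UMIs.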

How the results depend on the processing

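No paired analysis was possible because the groups share only 1 replicate number and each is 1 library. The share ratio among Ptprc-positive cells moved to 0.848 under the stricter cell filter and stayed between 0.453 and 0.514 under the 6 other alternatives; that among retained cells ran from 0.739 to 1.15. The 153 genes past 2-fold became 379 with a minimum of 20 UMIs, 44 with 100 UMIs, 304 at 1.5-fold and 77 at 3-fold. They became 57 without cells carrying other types' transcripts, 47 with the mean over cells of CPM there, and 56 with a total without S100a8, S100a9 and haemoglobin there. Of genes past 2-fold, 28.8% were higher, against 40.1% with the total without S100a8, S100a9 and haemoglobin over all gated cells and 45.6% in the subset. Of 16 lists, 4 had medians over 0.5 from that of all genes, against 2 with the mean over cells and 2 with that mean in the subset. The 169 genes past 4-fold over other cells, either way, became 353 at 2-fold. The median log2 ratio of secondary granule genes, -1.90, turned to 0.953 without granule-rich cells, and the Lyz2 ratio, 0.437, turned to 1.225; the cells left out hold those transcripts. With the granule-rich cell outside the gate, Ltf, Ngp and Lyz2 stood at 0.820, 0.563 and 0.752. Among 40 and 32 cells, Wfdc17, Stfa2l1, Gm5483, Ifitm1, Lrg1, Gpx1, Tspo, Thbs1, Ptgs2, Plek and BC018473 stayed past 2-fold under all 11 alternatives run on that subset; Cxcl2 ran from 0.365 to 0.508, Ccl3 from 0.0475 to 0.587 and S100a6 from 1.60 to 2.46, while Stfa1 stood at 1.75 with a limit of 10 UMIs for other types' markers and Coq10b at 1.62 with the mean over cells. Limits of 10 or 40 UMIs for other types' markers kept 37 and 26 or 42 and 33 cells. With 91 cells and 1 library per genotype, neither mice nor preparations can be weighed, and a gene under 40 UMIs was not measured.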
